A study of Mus musculus with 10 samples.

Results

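The genes that encode the enzymes writing and erasing methylation of lysine 4 on histone H3 (H3K4) were examined for their own H3K4me3 mark in the 3 subpopulations of naive extra-embryonic endoderm (nEnd). The 10 genes, of 21755 protein-coding genes in the annotation, were chosen by the roles of their products. They are the writers *Kmt2a*, *Kmt2b*, *Kmt2c*, *Kmt2d*, *Setd1a* and *Setd1b*, the shared core subunit gene *Wdr5*, and the erasers *Kdm5a*, *Kdm5b* and *Kdm1a*. Promoters were taken as 1000 bp upstream to 100 bp downstream of every annotated transcription start site (TSS), and a single overlapping base of a peak made a gene marked. The promoter peak of a gene was the one with the highest total signal among such peaks.

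nEnd is a culture that models the primitive endoderm (PrE) of the mouse blastocyst, and the cells came from the OCT4-mCherry reporter line without treatment, expanded on mouse embryonic fibroblast (MEF) feeders. Oct4+ nEnd, double-positive (DP) nEnd and Pdgfra+ nEnd were sorted by FACS on OCT4-mCherry and PDGFRA-APC. CUT&Tag, an assay that tethers a transposase to the mark through an antibody, gave H3K4me3 peaks for 4 Oct4+, 3 DP and 3 Pdgfra+ libraries. The study describes 3 biological replicates behind its H3K4me3 tracks, while 4 Oct4+ libraries were used here. The sample labels do not give the culture behind each library. The p-values therefore measure the spread between these libraries, which may be technical. All came from 1 reporter line, the groups differ by sort gate, and each library is a bulk pool of cells.

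H3K4me3 sits at the promoters of active and poised genes. MLL1 and MLL2 (encoded by *Kmt2a* and *Kmt2b*) and SETD1A and SETD1B place di- and trimethylation, with the SETD1 enzymes responsible for much of the bulk H3K4me3 in a cell, and MLL3 and MLL4 (*Kmt2c* and *Kmt2d*) mainly place H3K4me1 at enhancers. All 6 enzymes work within COMPASS-type complexes whose core holds WDR5. KDM5A and KDM5B remove methyl groups from H3K4me3, while LSD1 (*Kdm1a*) removes them from H3K4me1 and H3K4me2, and both KDM5B and LSD1 have been studied in embryonic stem cells (ESCs).

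The promoters of 4 genes that the comparisons turn on are shown as the RefSeq bases directly upstream of the TSS (GRCm38.p6), 5′ to 3′, with each CpG in capitals because H3K4me3 gathers at CpG-rich promoters. RefSeq promoters were matched for 7 of the 10 genes.
Kdm5b, chr1:134559928-134560170, plus strand: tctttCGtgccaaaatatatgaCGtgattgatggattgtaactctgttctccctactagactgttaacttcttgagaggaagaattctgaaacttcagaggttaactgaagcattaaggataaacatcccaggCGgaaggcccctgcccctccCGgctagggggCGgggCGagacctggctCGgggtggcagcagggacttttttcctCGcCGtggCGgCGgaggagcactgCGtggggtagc
Kdm1a, chr4:136602724-136602973, minus strand: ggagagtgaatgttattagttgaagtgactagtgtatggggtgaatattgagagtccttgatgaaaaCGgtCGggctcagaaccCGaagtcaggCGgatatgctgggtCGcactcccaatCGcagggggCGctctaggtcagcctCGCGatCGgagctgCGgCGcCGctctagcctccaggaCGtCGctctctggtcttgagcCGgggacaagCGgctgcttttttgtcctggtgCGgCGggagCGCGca
Wdr5, chr2:27514897-27515146, plus strand: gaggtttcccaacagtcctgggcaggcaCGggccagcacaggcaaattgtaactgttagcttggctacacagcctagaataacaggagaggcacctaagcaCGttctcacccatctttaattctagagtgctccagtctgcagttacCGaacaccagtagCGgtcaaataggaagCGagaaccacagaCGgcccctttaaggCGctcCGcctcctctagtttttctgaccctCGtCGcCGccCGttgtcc
Kmt2c, chr5:25498784-25499033, minus strand: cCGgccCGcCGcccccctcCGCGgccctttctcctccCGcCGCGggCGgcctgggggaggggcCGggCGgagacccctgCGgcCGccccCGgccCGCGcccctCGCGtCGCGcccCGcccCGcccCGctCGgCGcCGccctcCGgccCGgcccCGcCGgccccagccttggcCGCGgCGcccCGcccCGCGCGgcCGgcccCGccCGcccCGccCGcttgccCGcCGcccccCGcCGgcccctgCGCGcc

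The 4 promoters differed widely in CpG content. *Kmt2c* held 48 CpGs in 250 bases, and 0.186% of 32851 RefSeq promoters held as many or more. *Kdm1a* held 21 in 250 bases, and 16.3% of promoters held as many. *Wdr5* held 12 in 250 bases, and 33.5% of promoters held as many or more. *Kdm5b* held 12 in the 243 bases shown and 13 in 250 bases, and 31.5% of promoters held 13 or more. The median over all promoters was 6. The motif GGGCGG, the core recognised by SP and KLF factors, which itself contains a CpG, was searched on both strands. It occurred 10 times in *Kmt2c*, 1 time in *Kdm5b*, 1 time in *Wdr5* and 0 times in *Kdm1a*, and 32.7% of all promoters held at least 1 match.

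The libraries held 3477 to 10545 peaks. Oct4+ nEnd replicate 3 had the fewest peaks and the lowest median of highest coverage (22), and 15 of the 7860 peaks in the Oct4+ nEnd consensus list began where one of its peaks did. For Pdgfra+ nEnd replicate 2 this held for 71 of 7781, and which libraries entered each consensus is not given in the sources used here. That library had the narrowest peaks, with a median width of 2204.5 bp against 3032.5 to 4222.5 bp in the other libraries. Epiblast (Epi) markers were marked in 6 of 6 genes in every Oct4+ nEnd library, in 5 or 6 in DP nEnd and in 0 to 2 in Pdgfra+ nEnd. PrE markers were marked in 0 to 4 of 7 genes in Oct4+ nEnd and in 7 of 7 in each DP and Pdgfra+ nEnd library. Of 12 fibroblast markers, 11 had no peak in any library, and *Col1a1*, *Col1a2* and *Col3a1* were among those without one. Since coverage is unscaled, each peak was ranked within its own library, as the percentage of that library's peaks at or below it (its percentile). Sequencing depth is unknown. In sorted bulk cells, a mark present in fewer cells and a weaker mark in each cell cannot be told apart.

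All 10 genes had a promoter peak in all 10 libraries and in each of the 3 consensus lists. Over all protein-coding genes, 16.6% (3616 of 21755) were marked in every library. Presence therefore did not separate the populations at any of the 10 genes (Fisher's exact test, two-sided, p = 1 for each gene and pair). Between Oct4+ and DP nEnd, 2.15% of all genes were marked in every library of one population and in none of the other, and the shares were 1.79% for Oct4+ against Pdgfra+ nEnd and 0.115% for DP against Pdgfra+ nEnd. These all-gene counts of 467, 390 and 25 moved with the libraries. Without Oct4+ nEnd replicate 1 the first was 803 and the second 638, and without Pdgfra+ nEnd replicate 2 the second was 702 and the third 55. The third was 250 without Pdgfra+ nEnd replicate 1, 45 without DP nEnd replicate 2 and 39 without DP nEnd replicate 3, and with equal numbers of peaks the counts were 740, 879 and 111. None of the 10 genes was among them in any of these settings. The smallest p this test allows is 0.0286 for 4 against 3 libraries and 0.1 for 3 against 3, so no gene passed after adjustment over all genes, while 467, 390 and 0 genes had an unadjusted p under 0.05.

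The peaks of the writers and erasers ranked high. Over the 100 gene-by-library values the total-signal percentile ran from 12.4 to 99.7 with a median of 92.8, and 90 values lay above 75. Oct4+ nEnd replicate 3 held the lowest total-signal percentile of the 10 libraries at 3 of the 10 genes, and at 57.9% of the genes marked in every library. In Oct4+ nEnd the median of the 10 gene means was 92.5, against 70.5 for the 3616 genes marked in every library. In DP nEnd the corresponding medians were 94.8 and 80.2, and in Pdgfra+ nEnd 90.8 and 77.4. *Setd1b* and *Kmt2a* stood at the top of the order in DP nEnd, and *Kdm1a* was the lowest of the 10 in each population.

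**Figure D1:**
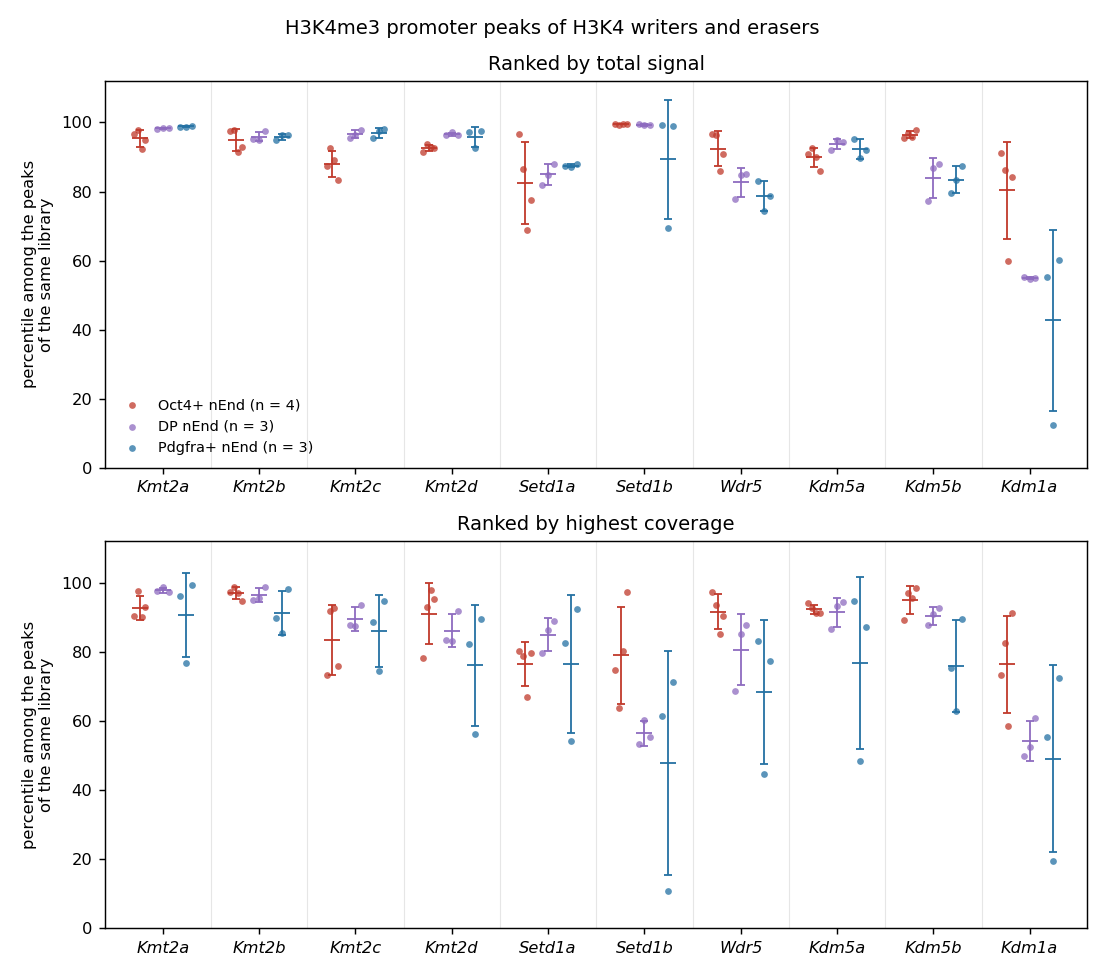
Percentile of the promoter peak among all peaks of the same library (vertical axis, 0 to 100), ranked by total signal (upper panel) and by highest coverage (lower panel), for the 10 genes in Oct4+ nEnd (4 libraries), DP nEnd (3) and Pdgfra+ nEnd (3). Points are libraries, and the dash and bar are the mean and SD. By total signal *Kdm5b* sits from 95.4 to 97.8 in Oct4+ nEnd and from 77.2 to 88.0 elsewhere, and *Kdm1a* spans the widest range, 12.4 to 91.3.

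Differences between populations were tested gene by gene with limma over every gene marked in all libraries of both populations, and a call was an adjusted p under 0.05 after Benjamini-Hochberg adjustment over those genes. The comparisons of Oct4+ nEnd with DP nEnd and with Pdgfra+ nEnd share the Oct4+ libraries, so their values are given side by side. By total-signal percentile 1 of the 10 genes, *Kdm5b*, was called higher in Oct4+ than in DP nEnd, where 4.87% of 3882 genes were called. Against Pdgfra+ nEnd 1 of 10, again *Kdm5b*, was called, where 4.73% of 3616 genes were called. With the replicate number as a block, 2 of 10 were called in the latter pair, *Kdm5b* and *Setd1b*, and 3.15% of all genes. The size of a percentile difference depends on which peaks are ranked. When only the tested genes were ranked among themselves, 38.2% and 39.8% of all genes were called in these pairs, and with equal numbers of peaks in every library 36.2% and 37.3%, so calls at single genes under these rankings are read against those shares. The median difference of the 10 genes was −1.70 percentile points against DP nEnd and −1.70 against Pdgfra+ nEnd, while over all genes tested it was −5.91 and −4.46.

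Counts of genes whose libraries did not overlap were larger. Oct4+ and DP nEnd did not overlap at 6 of 10 genes by total-signal percentile, 3 higher and 3 lower. Of the 3882 genes tested 33.4% did not overlap, 413 higher and 884 lower in Oct4+ nEnd. Oct4+ and Pdgfra+ nEnd did not overlap at 5 of 10, where 27.8% did not. DP and Pdgfra+ nEnd did not overlap at 1 of 10, *Kmt2a*, where 10.3% did not.

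**Figure D2:**
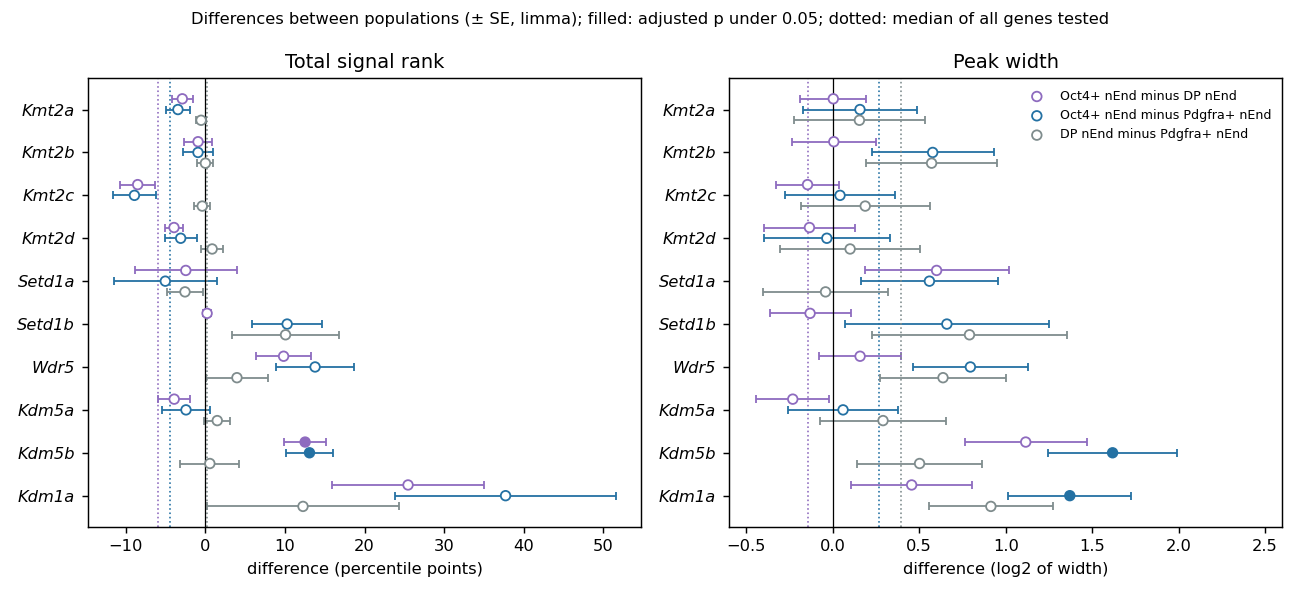
Difference between populations for each gene (horizontal axis) in percentile points of total signal (left) and in log2 of peak width (right). Symbols are limma estimates with SE bars, filled where the adjusted p was under 0.05, and dotted lines mark the median of all genes tested. Filled symbols are *Kdm5b* against both populations on the left, and *Kdm5b* and *Kdm1a* against Pdgfra+ nEnd on the right.

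Among the writers, the 4 MLL genes kept high ranks in every population. *Kmt2a*, which encodes MLL1, lay at percentiles 96.7, 97.8, 92.2 and 94.9 in Oct4+ nEnd replicates 1 to 4, at 98.2, 98.4 and 98.3 in DP nEnd, and at 98.8, 98.6 and 99.1 in Pdgfra+ nEnd. Each Oct4+ library was below each of the others, and each DP library was below each Pdgfra+ library. The difference between Oct4+ and DP nEnd was −2.91 ± 1.28 points (SE, n = 4 and 3, limma adjusted p = 0.195), and that between Oct4+ and Pdgfra+ nEnd was −3.46 ± 1.48 (n = 4 and 3, limma adjusted p = 0.146). The latter *Kmt2a* difference was called at −4.49 with equal numbers of peaks (adjusted p = 0.0303) and at −5.43 among the tested genes (adjusted p = 0.0343). *Kmt2b*, which encodes MLL2, ran from 91.5 to 97.9 over the 10 libraries with overlapping groups, and its peak took in the *Zbtb32* promoter in Oct4+ nEnd replicate 4 and in the Oct4+ consensus. Noncoding genes shared the promoter peak in all 10 libraries at *Kmt2a* (*AC061963.1*), *Kmt2b* (*Mir3569*), *Kmt2c* (*4831440E17Rik*), *Kmt2d* (*5730414N17Rik* and *Gm49437*) and *Setd1b* (*AI480526*), and *4932422M17Rik* and *Gm38102* joined the last in 9 libraries.

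*Kmt2c*, the MLL3 gene with the CpG-dense promoter shown above, had total-signal percentiles of 87.4, 92.5, 89.1 and 83.4 in Oct4+ nEnd. It had 95.6, 96.5 and 97.8 in DP nEnd and 95.4, 97.6 and 98.1 in Pdgfra+ nEnd. All 4 Oct4+ libraries were below all 6 others. The difference was −8.52 ± 2.24 points against DP nEnd (SE, n = 4 and 3, limma adjusted p = 0.0578) and −8.93 ± 2.71 against Pdgfra+ nEnd (limma adjusted p = 0.0624), so neither passed. Without Oct4+ nEnd replicate 3, the library with the fewest peaks, the values were −8.85 (adjusted p = 0.0585) and −9.26 (adjusted p = 0.0474), the second past the threshold. Without Oct4+ nEnd replicate 1 the difference against Pdgfra+ nEnd was −8.71 (adjusted p = 0.0186). Without Oct4+ nEnd replicate 2 both *Kmt2c* differences passed, at −9.99 (adjusted p = 0.0339) and −10.4 (adjusted p = 0.0238). The difference against Pdgfra+ nEnd also passed in 1 fit over all 10 libraries, at −8.93 (adjusted p = 0.0209), and among the tested genes, at −15.4 (adjusted p = 0.0475). Of all genes tested against Pdgfra+ nEnd, 6.6%, 17.5% and 11.9% were called without Oct4+ nEnd replicates 3, 1 and 2. That share was 11.5% in the 1 fit and 39.8% among the tested genes, against 4.73% with all libraries of the pair. Against DP nEnd it was 3.42% without Oct4+ nEnd replicate 2. Relative to the median of all genes tested, the 4-library differences of *Kmt2c* were −2.61 and −4.47 points. Its width did not follow, and ran from 4340 to 4731 bp in the Oct4+ libraries, from 4504 to 5557 bp in the DP libraries and from 4068 to 4965 bp in the Pdgfra+ libraries.

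*Kmt2d*, the MLL4 gene, lay at 91.4, 93.7, 92.9 and 92.6 in Oct4+ nEnd and at 96.4, 97.1 and 96.3 in DP nEnd, without overlap, and the difference of −3.96 ± 1.16 points did not pass (SE, n = 4 and 3, limma adjusted p = 0.0832). In Pdgfra+ nEnd it lay at 97.3, 92.5 and 97.5, with replicate 2 inside the Oct4+ range.

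Among the genes of the SETD1 enzymes, *Setd1b* shared its promoter peak with *Rhof* in 9 of 10 libraries and *Setd1a* with *Orai3* in 1. *Setd1b* had the highest mean width of the 10 genes in each population. Its domain reached 10673 to 12178 bp upstream of its first TSS over the *Rhof* promoter in 9 of 10 libraries, with widths of 14911, 14585, 12871 and 14453 bp in Oct4+ nEnd, 14531, 16195 and 15915 bp in DP nEnd, and 15734, 3106 and 14802 bp in Pdgfra+ nEnd. In Pdgfra+ nEnd replicate 2 the domain was split, and the peak at *Setd1b* itself was narrower there than those of *Kmt2a*, *Kmt2b*, *Kmt2c* and *Kmt2d*, which were 3381 to 4515 bp wide. In Oct4+ nEnd replicate 4 the *Kdm5b* peak, at 14615 bp, was wider than that of *Setd1b*. The total-signal percentile was 99.0 to 99.7 in the 9 libraries with the joined domain and 69.5 in that library. The joint peak cannot be divided between *Setd1b* and *Rhof*. The difference between Oct4+ and Pdgfra+ nEnd was 10.3 ± 4.42 points (SE, n = 4 and 3, limma adjusted p = 0.149). It was 0.36 points without Pdgfra+ nEnd replicate 2 (adjusted p = 0.8286). Without Pdgfra+ nEnd replicate 1 or 3, the *Setd1b* difference was called at 15.3 (adjusted p = 0.0450) and at 15.1 (adjusted p = 0.00479). It was also called without Oct4+ nEnd replicate 1, at 10.3 (adjusted p = 0.00109). In the fit with the replicate number as a block, in which Oct4+ nEnd replicate 4 has no partner and adds nothing to the difference, it was called (10.3 points, adjusted p = 0.00159), with the same Pdgfra+ library in the fit.

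Further peaks lay inside *Setd1b* (gene body chr5:123142193-123168629), between 5 and 21 kb downstream of the first TSS, a feature chosen after its values were seen. They numbered 2, 2, 1 and 1 in Oct4+ nEnd replicates 1 to 4, 0 in each DP nEnd library, and 1, 0 and 0 in Pdgfra+ nEnd. They covered 11961, 9459, 4328 and 15309 bp in Oct4+ nEnd and 4105 bp in Pdgfra+ nEnd replicate 1. Their highest percentile by total signal was 52.9, 35.2, 38.5 and 83.5 in the Oct4+ libraries and 7.99 in the Pdgfra+ library. A further annotated promoter of *Setd1b* lay in the farther peak of Oct4+ nEnd replicates 1 and 2 and in the peak of replicate 4. The peaks in Oct4+ nEnd replicate 3 and in Pdgfra+ nEnd replicate 1 held no annotated promoter. Oct4+ nEnd thus had a peak in this stretch in every library, including the one with the fewest peaks. Since the peaks were noticed in these data no test was made, and no share over all genes was taken.

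*Setd1a* lay at percentiles 96.7, 86.6, 69.0 and 77.6 in Oct4+ nEnd, 82.0, 84.9 and 87.9 in DP nEnd, and 87.5, 87.1 and 88.0 in Pdgfra+ nEnd. The Oct4+ libraries spread on both sides of the others. In Oct4+ nEnd replicate 1 the peak was 13876 bp wide and took in the *Orai3* promoter, whereas in the other 9 libraries it was 2807 to 5026 bp wide.

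*Wdr5* encodes the WD-repeat scaffold of the COMPASS core. Its total-signal percentile was 96.8, 96.3, 85.8 and 90.9 in Oct4+ nEnd, 77.9, 84.9 and 85.1 in DP nEnd, and 83.0, 74.2 and 78.7 in Pdgfra+ nEnd. All 4 Oct4+ libraries were above all 6 others, the lowest by under 1 point. The difference was 9.82 ± 3.50 points against DP nEnd (SE, n = 4 and 3, limma adjusted p = 0.136) and 13.8 ± 4.87 against Pdgfra+ nEnd (limma adjusted p = 0.0894). Without Oct4+ nEnd replicate 3 the differences in *Wdr5* were 12.0 (adjusted p = 0.0441) and 16.0 (adjusted p = 0.0463), both past the threshold. Both *Wdr5* differences were also called with equal numbers of peaks, at 29.8 (adjusted p = 0.00210) and 38.1 (adjusted p = 0.000802), and among the tested genes, at 29.9 (adjusted p = 0.00101) and 36.1 (adjusted p = 0.000243). Its peaks were 4494 to 6981 bp wide in the Oct4+ libraries, 4058 to 6283 bp in the DP libraries and 2575 to 3947 bp in the Pdgfra+ libraries.

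Among the erasers, *Kdm5b* (chr1:134560171-134635285, plus strand) was called by total signal and by width, and *Kdm1a* by width. *Kdm5b* encodes an H3K4me3 demethylase expressed in ESCs, and its promoter peak ranked at 95.4, 96.9, 95.9 and 97.8 by total signal in Oct4+ nEnd, at 77.2, 86.7 and 88.0 in DP nEnd, and at 79.6, 83.3 and 87.4 in Pdgfra+ nEnd. All 4 Oct4+ libraries lay above all 6 others, and DP and Pdgfra+ nEnd overlapped. *Kdm5b* was higher in Oct4+ nEnd by 12.5 ± 2.65 points than in DP nEnd (SE, n = 4 and 3, limma adjusted p = 0.0256) and by 13.1 ± 2.94 points than in Pdgfra+ nEnd (limma adjusted p = 0.0163). Both *Kdm5b* calls were lost without Oct4+ nEnd replicate 4, at 12.1 points (adjusted p = 0.133) and 12.7 points (adjusted p = 0.143), and the call against DP nEnd also without Oct4+ nEnd replicate 2, at 12.4 points (adjusted p = 0.0535), and in 1 fit over all 10 libraries, at 12.5 points (adjusted p = 0.0720). With equal numbers of peaks the *Kdm5b* differences were 31.1 and 33.9 points, and among the tested genes 31.5 and 33.4 points, all called. An exact two-sided permutation test of *Kdm5b* gave p = 0.0286 in each comparison, the smallest that 4 against 3 libraries allow, and adjusted over all genes it gave 0.279 and 0.282. All 5 Epi markers tested between Oct4+ and DP nEnd were also called higher in Oct4+ nEnd, and their part in the *Kdm5b* difference was not tested.

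The *Kdm5b* peak was wider in Oct4+ than in Pdgfra+ nEnd. Total signal is coverage summed over the peak, so the width enters it and the 2 measures are not independent. It measured 9255, 7615, 7299 and 14615 bp in Oct4+ nEnd, 3006, 7536 and 3502 bp in DP nEnd, and 3919, 2943 and 2421 bp in Pdgfra+ nEnd. Every Oct4+ library was wider than every Pdgfra+ library, and DP nEnd replicate 2 fell among the Oct4+ libraries. On the log2 scale of width the difference was 1.62 ± 0.37 against Pdgfra+ nEnd (SE, n = 4 and 3, limma adjusted p = 0.0165), a 3.07-fold wider peak, and 1.12 ± 0.35 against DP nEnd (limma adjusted p = 0.393). Over all genes tested the median log2 difference in width was 0.27 against Pdgfra+ nEnd, and relative to it *Kdm5b* differed by 1.35. The extra width lay in the gene. The peak reached 8462, 6619, 6294 and 13970 bp downstream of the first TSS in Oct4+ nEnd, against 2615, 6555 and 2680 bp in DP nEnd and 3169, 2344 and 2013 bp in Pdgfra+ nEnd, and at most 1004 bp upstream in any library. Another peak, holding no annotated promoter, lay upstream of *Kdm5b* in all 10 libraries, 1749 to 3863 bp wide.

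*Kdm1a* (chr4:136550540-136602723, minus strand), the LSD1 gene, spanned the widest range of the 10. By total signal it ranked at 91.3, 86.2, 59.7 and 84.3 in Oct4+ nEnd, at 55.1, 54.6 and 55.1 in DP nEnd, and at 55.3, 12.4 and 60.2 in Pdgfra+ nEnd. The Oct4+ libraries were above those of DP nEnd, and Oct4+ replicate 3 fell below Pdgfra+ replicate 3. The difference in *Kdm1a* was 25.5 ± 9.50 points against DP nEnd (SE, n = 4 and 3, limma adjusted p = 0.149) and 37.7 ± 13.9 against Pdgfra+ nEnd (limma adjusted p = 0.1003). Without Oct4+ nEnd replicate 3 it was 32.4 (adjusted p = 0.0220) and 44.6 (adjusted p = 0.0490), both past the threshold, and without Pdgfra+ nEnd replicate 2 the latter was 22.6 (adjusted p = 0.337). Among the tested genes the *Kdm1a* differences were called at 51.4 (adjusted p = 0.000483) and 56.1 (adjusted p = 0.000619).

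The *Kdm1a* peak was 11873, 5579, 3748 and 7212 bp wide in Oct4+ nEnd, 5788, 3623 and 5082 bp in DP nEnd, and 2946, 2214 and 2441 bp in Pdgfra+ nEnd. All Oct4+ and DP libraries were wider than all Pdgfra+ libraries. Over all genes tested, 10.5% of 3616 did not overlap in width between Oct4+ and Pdgfra+ nEnd and 15.2% of 7174 between DP and Pdgfra+ nEnd, where 96.3% were wider in DP nEnd with a median log2 difference of 0.40. The log2 difference in *Kdm1a* width between Oct4+ and Pdgfra+ nEnd was 1.37 ± 0.35 (SE, n = 4 and 3, limma adjusted p = 0.0363), which is 2.59-fold, and 1.10 relative to the median of all genes. It was 0.46 ± 0.35 between Oct4+ and DP nEnd (limma adjusted p = 0.654) and 0.91 ± 0.36 between DP and Pdgfra+ nEnd (limma adjusted p = 0.293). As at *Kdm5b*, the peak lay mostly in the gene, with 81.9% to 90.9% of its width downstream of the first TSS, against 76.5% to 95.6% at *Kdm5b* and 44.9% to 55.8% at *Kmt2c*.

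By width, 2 of the 10 genes were thus called between Oct4+ and Pdgfra+ nEnd, where 1.71% of 3616 genes were called, and 0 of 10 between Oct4+ and DP nEnd (0.18% of 3882) and between DP and Pdgfra+ nEnd (0.516% of 7174). With widths ranked within each library the 0.18% was 0.0773% and the 0.516% was 0%. Without Pdgfra+ nEnd replicate 1 the 0.516% was 16.3%. The 1.71% was 4.34% with the replicate block, 10.5% without Pdgfra+ nEnd replicate 1, 4.15% without Oct4+ nEnd replicate 3, 0.902% without Oct4+ nEnd replicate 4, and 0.105% and 0.276% without Pdgfra+ nEnd replicates 2 and 3. Both calls were lost without Oct4+ nEnd replicate 4 (adjusted p = 0.0749 for *Kdm5b* and 0.0715 for *Kdm1a*), without Pdgfra+ nEnd replicate 2 (0.0987 and 0.238) and without Pdgfra+ nEnd replicate 3 (0.246 and 0.193). The *Kdm1a* call was also lost without Oct4+ nEnd replicate 1 (0.144) and with the widths of all promoter peaks summed (0.0506). With 1 library left out the log2 difference ran from 1.40 to 1.80 for *Kdm5b* and from 1.08 to 1.64 for *Kdm1a*. Pdgfra+ nEnd replicate 2 had the narrowest peak of the 10 libraries at 9 of the 10 genes and at 78.1% of the genes marked in every library. As a percentile of the widths in the same library, which allows for narrower peaks throughout a library, *Kdm5b* was 44.2 points higher in Oct4+ than in Pdgfra+ nEnd (limma adjusted p = 0.0556) and *Kdm1a* 51.2 points (limma adjusted p = 0.0722).

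**Figure D3:**
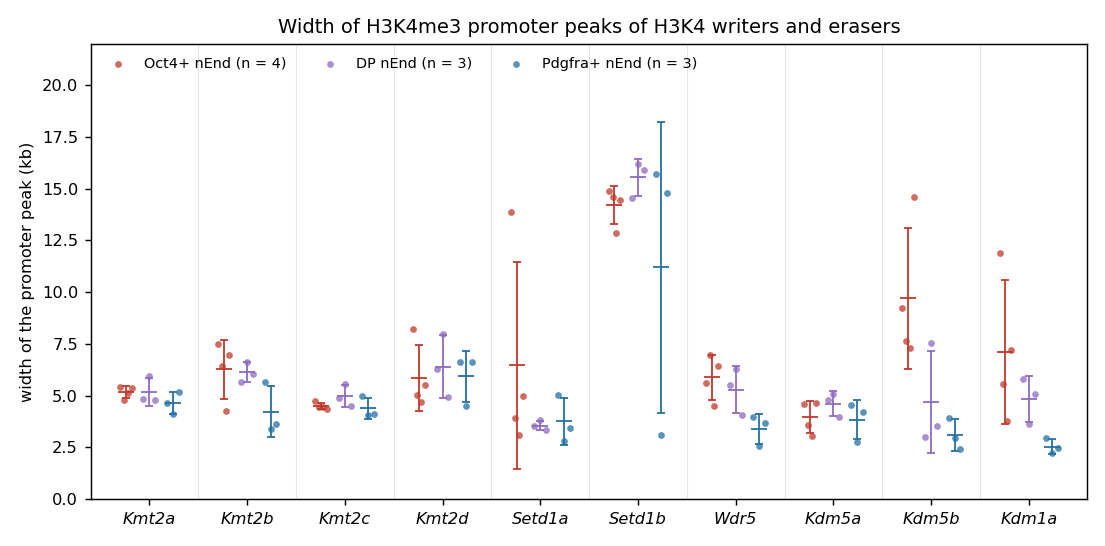
Width of the promoter peak in kb (vertical axis, from 0) for the 10 genes in each library of Oct4+ nEnd, DP nEnd and Pdgfra+ nEnd. Points are libraries, and the dash and bar are the mean and SD. *Kdm5b* runs from 7299 to 14615 bp in Oct4+ nEnd and from 2421 to 3919 bp in Pdgfra+ nEnd, and *Setd1b* is at least 12871 bp wide in all but 1 library.

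**Figure D4:**
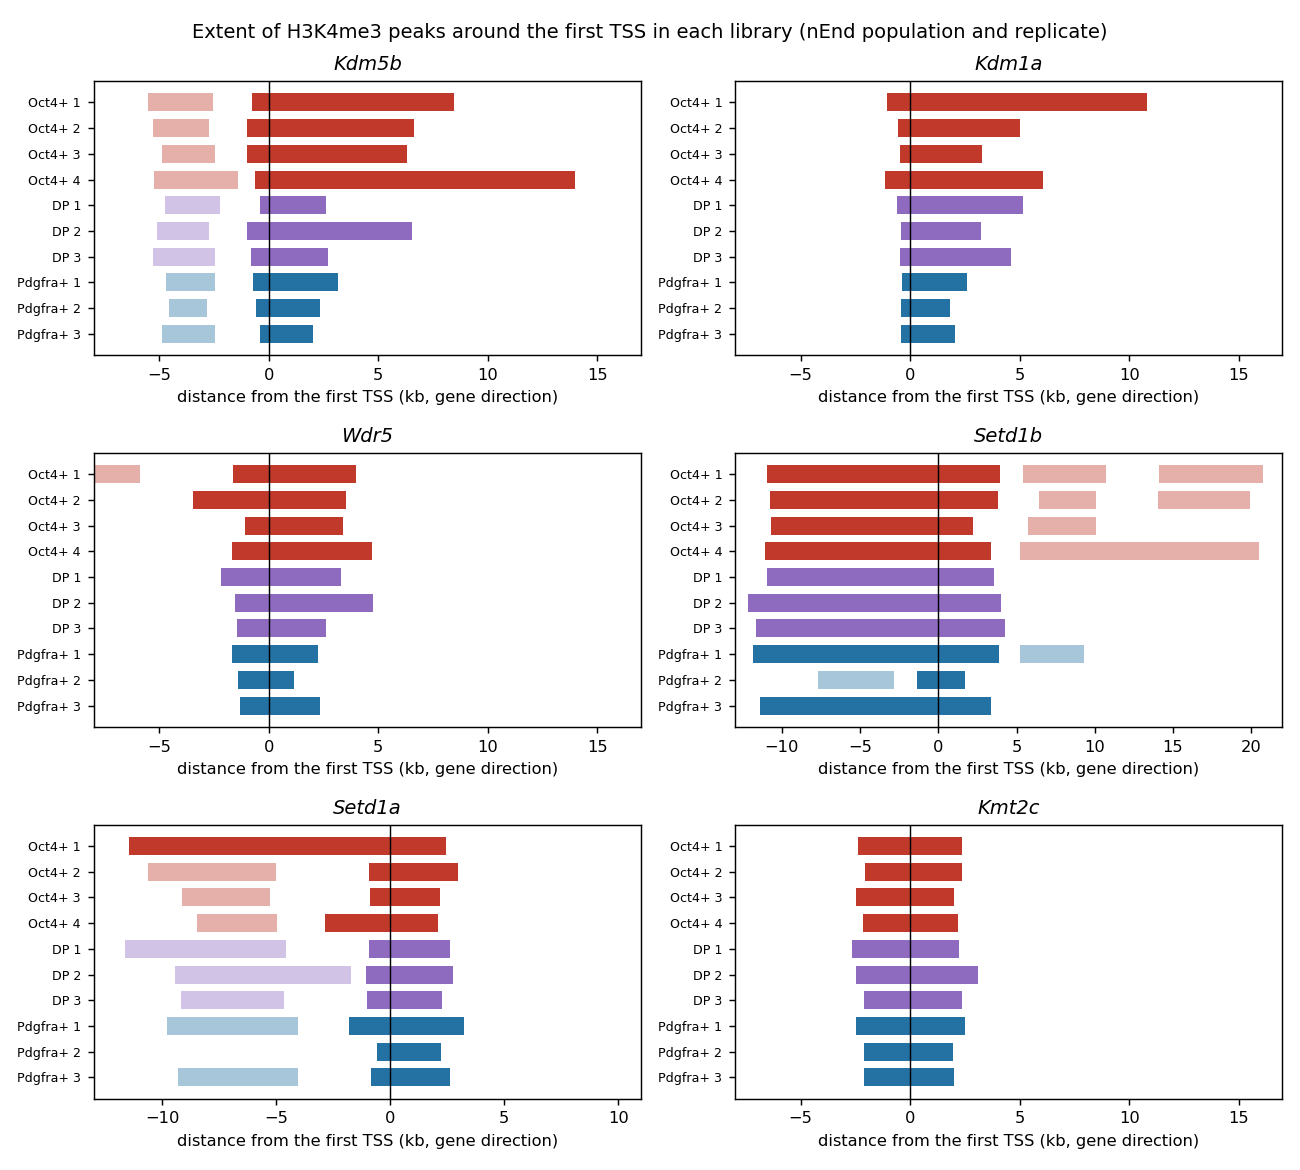
Extent of the peaks around the first TSS (vertical line at 0) of 6 genes, in kb along the gene, with 1 line per library. Solid bars are the promoter peaks, and pale bars are other peaks nearby. The *Kdm5b* and *Kdm1a* peaks reach farther into the gene in Oct4+ nEnd than in Pdgfra+ nEnd, *Kmt2c* is of like extent in all libraries, and peaks inside *Setd1b* appear in 4 of 4 Oct4+ libraries, in 0 of 3 DP libraries and in 1 of 3 Pdgfra+ libraries.

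*Kdm5a*, the other KDM5 gene examined, shared its peak with the *Ccdc77* promoter and lay between 86.0 and 92.7 by total signal in Oct4+ nEnd, at 92.2, 94.8 and 94.4 in DP nEnd, and 95.2, 89.6 and 92.1 in Pdgfra+ nEnd. The groups overlapped, and the difference of −3.93 ± 2.02 points between Oct4+ and DP nEnd did not pass (SE, n = 4 and 3, limma adjusted p = 0.237).

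Ranked by highest coverage in place of total signal, 0 of 10 genes were called in any pair, where 3.19% of 3882 genes were called between Oct4+ and DP nEnd and 0% in each of the other pairs. The 3.19% was 0.438% with the replicate block, 0.525% in 1 fit over all 10 libraries, 9.17% among the tested genes, 8.15% with equal numbers of peaks, 0.694% to 1.1% without 1 DP library, and 1.93% and 1.6% without Oct4+ nEnd replicates 2 and 4. At an unadjusted p under 0.05 there were 448 genes between Oct4+ and Pdgfra+ nEnd and 119 between DP and Pdgfra+ nEnd, of which 2 and 0 were among the 10. *Kdm5b* had highest-coverage percentiles of 89.3, 97.0, 95.5 and 98.4 in Oct4+ nEnd, 87.6, 91.1 and 92.6 in DP nEnd, and 75.1, 62.8 and 89.6 in Pdgfra+ nEnd, so the groups overlapped. The difference in *Kdm5b* was 4.62 ± 2.74 points against DP nEnd (SE, n = 4 and 3, limma adjusted p = 0.368) and 19.2 ± 6.85 against Pdgfra+ nEnd (limma adjusted p = 0.329). Pdgfra+ nEnd replicate 2 had the lowest highest-coverage percentile of the 10 libraries at 9 of the 10 genes, and at 36.3% of the genes marked in every library.

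Between DP and Pdgfra+ nEnd no call was made at these genes. By total-signal percentile 0 of 10 genes, and 0% of 7174, were called by limma, while 376 genes had an unadjusted p under 0.05, of which 0 were among the 10. The 0% over all genes was 0.572% without Pdgfra+ nEnd replicate 1 and 0.061% without replicate 2, with 0 of the 10 called. By total signal *Kdm5b* stood at 84.0 ± 5.88 in DP nEnd (SD, n = 3), beside 83.4 ± 3.89 in Pdgfra+ nEnd (SD, n = 3). Both lay below Oct4+ nEnd at 96.5 ± 1.07 (SD, n = 4). The DP to Pdgfra+ difference was 0.55 ± 3.70 points (SE, limma adjusted p = 0.998). By highest coverage that difference in *Kdm5b* was 14.6 ± 6.98 points (SE, n = 3 and 3, limma adjusted p = 0.986). By log2 width it was 0.50 ± 0.36 (SE, n = 3 and 3, limma adjusted p = 0.526). By total signal again, the *Wdr5* difference was 3.96 ± 3.90 points (SE, n = 3 and 3, limma adjusted p = 0.949). The *Kdm1a* difference was 12.3 ± 12.1 points (SE, n = 3 and 3, limma adjusted p = 0.949), and −2.84 without Pdgfra+ nEnd replicate 2.

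The consensus lists, which give positions only, held 1 promoter peak for 9 of the 10 genes in each population, and for *Setd1b* 2 in Oct4+ nEnd. The consensus peak of *Kdm5b* was 14966, 7536 and 3919 bp wide in the Oct4+, DP and Pdgfra+ lists, at width percentiles of 98.5, 88.1 and 40.6 within the lists. That of *Kdm1a* was 11951, 5788 and 2981 bp wide, at percentiles of 96.9, 70.4 and 11.5. That of *Kmt2c* was 4747, 5756 and 4965 bp wide. Single libraries set some of these widths. The downstream end of the Oct4+ *Kdm5b* peak was that of replicate 4, where the next widest library peak was 9255 bp, and the DP peak was that of replicate 2, where the next was 3502 bp. The downstream end of the Oct4+ *Kdm1a* peak was that of replicate 1, where the next widest library peak was 7212 bp.

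Of 46 other genes of the pathway, 29 (63.0%) were marked in all 10 libraries, 16 in some and 1, *Smyd1*, in none. They were marked in 31 to 45 genes per Oct4+ nEnd library, with the fewest in replicate 3, in 44 or 45 per DP nEnd library and in 39 to 45 per Pdgfra+ nEnd library. Of the 16 genes, *Ash2l* and *Rbbp5*, which encode subunits of the COMPASS core, were marked in all Oct4+ and DP libraries and in 2 of 3 Pdgfra+ libraries. *Cxxc1* and *Bod1l* were marked in 3 of 4 Oct4+ libraries, all DP libraries and 2 of 3 Pdgfra+ libraries. The other 12 had a missing peak in Oct4+ nEnd. Of 39 pathway genes marked in every DP and Pdgfra+ library, 29 were also marked in every Oct4+ library, where over all protein-coding genes it was 3616 of 7174, a difference that was not tested. *Psip1*, *Ncoa6*, *Smyd3* and *Kdm1b* were marked in 3 of 4 Oct4+ libraries, *Bod1*, *Setd7*, *Smyd2*, *Prdm9*, *Phf8*, *Ing3* and *Ing4* in 2 of 4, and *Men1*, the gene of menin, a partner of MLL1 and MLL2, in 1 of 4. Of these 12, all but *Ing3* and *Ing4* were marked in every DP and Pdgfra+ library. *Ing3* was marked in 3 of 3 DP and 2 of 3 Pdgfra+ libraries, and *Ing4* in 2 and 1. *Setd7*, an H3K4 monomethyltransferase gene, lay at percentiles 9.29 and 33.0 in its marked Oct4+ libraries, at 74.8 to 79.8 in the DP libraries and at 79.9 to 85.3 in the Pdgfra+ libraries.

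By total-signal percentile 2 of 31 of these genes tested were called higher in Oct4+ than in DP nEnd and 0 lower, where 4.87% of all 3882 genes tested were called, and 3 of 29 were called higher than in Pdgfra+ nEnd and 0 lower, where 4.73% of 3616 were called. *Rcor2*, a CoREST scaffold that binds LSD1, was higher by 23.6 ± 4.62 points than in DP nEnd (SE, n = 4 and 3, limma adjusted p = 0.0173) and by 41.9 ± 10.1 points than in Pdgfra+ nEnd (limma adjusted p = 0.0254). *Gse1*, whose product is found with LSD1 and HDAC complexes, was higher by 20.8 ± 3.55 points (limma adjusted p = 0.00951) and 52.7 ± 10.6 points (limma adjusted p = 0.00837). *Dido1*, a PHD-finger reader of H3K4me3, was higher by 8.92 ± 1.97 points in Oct4+ than in Pdgfra+ nEnd (limma adjusted p = 0.0141), and its difference from DP nEnd was 2.17 ± 1.19 points (limma adjusted p = 0.259). All of these calls were lost without Oct4+ nEnd replicate 4, with adjusted p from 0.0758 to 0.143, at differences of 23.8 and 42.1 points for *Rcor2*, 20.7 and 52.6 for *Gse1* and 8.90 for *Dido1*. In 1 fit over all 10 libraries the calls of *Rcor2* and *Gse1* against DP nEnd were lost (adjusted p = 0.109 and 0.154). With the replicate block both *Rcor2* calls were lost (adjusted p = 0.0573 and 0.0698), as was that against DP nEnd without Oct4+ nEnd replicate 2 (adjusted p = 0.0544). Exact permutation tests called 0 genes in either pair, with 338 and 366 genes at an unadjusted p under 0.05. Over all alternatives the called difference of *Dido1* ran from 5.75 to 21.6 points. That of *Rcor2* ran from 20.8 to 60.8 against DP nEnd and from 35.5 to 73.7 against Pdgfra+ nEnd. For *Gse1* the ranges were 18.3 to 50.8 and 43.1 to 85.8. By highest coverage *Gse1* was called higher in Oct4+ than in DP nEnd by 58.8 points (limma adjusted p = 0.00459), a call lost under 4 of 15 alternatives, the exact test included. By width *Dido1* was called wider than in Pdgfra+ nEnd in Oct4+ nEnd, by 2.09 on the log2 scale (limma adjusted p = 0.0138, lost under 4 of 16 alternatives), and in DP nEnd, by 1.58 (limma adjusted p = 0.0426, lost under 11 of 15). Of 8 and 6 COMPASS subunit genes tested in these pairs, 0 were called.

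The genes closest to *Kdm1a* by Euclidean distance over the 10 total-signal percentiles, of 3615 compared, were *Cbx7*, *Ybx3*, *Rif1*, *Terf1* and *Tuba1b*, at distances of 17.9 to 25.6 points. *Cbx7*, the nearest, had means of 87.2, 54.1 and 42.6 in the Oct4+, DP and Pdgfra+ populations, beside 80.4, 54.9 and 42.7 for *Kdm1a*. The genes closest to *Kdm5b* by log2 width were *Adat3* and *Scamp4*, which share a peak and have equal values, then *Nrf1*, *Noct* and *Tmem131*. These genes were picked for their likeness, and no test was made of it.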

How the data were processed

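H3K4me3 CUT&Tag libraries of sorted Oct4+ (n = 4), DP (n = 3) and Pdgfra+ nEnd (n = 3) were analysed from peak lists and grouped by the labels. The authors aligned reads to mm10 with Bowtie2 (bcl2fastq 2.19.1, SAMtools 1.12 and bedtools 2.26.0 are also named in the submitters' processing notes), computed coverage, called peaks per library with SEACR against IgG (stringent) and made consensus lists per population with DiffBind. For each peak the authors deposited its total signal (summed coverage) and highest coverage, unscaled between libraries. Consensus lists gave positions only. No columns were left unmapped.

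Promoter windows came from GENCODE M21 (GRCm38; 93196 windows), checked by the share of peaks holding a TSS (90.6% to 97.2%, against 13.2% to 23.8% after a shift of 10000 bp). limma 3.58.1 (eBayes, trend) in R 4.3.3 was fitted per pair over all genes marked in every library of both populations, after tests on simulated data. Presence was compared by Fisher's exact test. Exact permutation tests, other windows and overlaps, equal numbers of peaks, other rank bases, 1 fit over all libraries, a replicate block and leaving out each library were alternatives. Python 3.11.15, pandas 2.3.3, numpy 2.4.6, scipy 1.17.1 and matplotlib 3.10.9 were used.

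The genes and lists were chosen with earlier results of these data known. Named genes were the 10 members, other pathway genes with a call or a missing peak, neighbours sharing a promoter peak, and the 5 genes nearest to the member with the widest span of population means by total-signal percentile and by log2 width. *Setd1b* internal peaks were described after their values were seen. Replicate numbers did not enter the main fits and were used only in the replicate-block alternative. For the total-signal percentile of Oct4+ and Pdgfra+ nEnd, correlations of same-numbered libraries' deviations were 0.125 to 0.193 (others −0.262 to 0.142). These ranges overlapped. *Kdm5d* lies outside the chromosomes used and was not analysed here.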

Additional observations from a re-analysis of the deposited data

Results flagged for a closer look

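1 of 40 sets of 4 Oct4+ nEnd values (10 genes by 4 measures) had a library far from the rest, the measures being both percentiles, width and downstream reach. The highest-coverage percentile of *Setd1a* in Oct4+ nEnd replicate 3 was 66.8, below the nearest library at 78.8, and the gap was 0.886 of the range, above Dixon's critical value for 4 samples. Chance alone gives about 1 such set in 20. That library had the fewest peaks, and the part of its low peak number in this value was not tested.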

How the results depend on the processing

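Of the alternative values for the 10 genes and 3 pairs, 1214 kept their direction and their side of the threshold, 24 crossed to a call, 18 lost one and 76 changed sign. Of those 76, 0 were past the threshold, and all are values of differences not called in the report either. The 8 calls of *Rcor2*, *Gse1* and *Dido1* were lost under 34 of 119 alternatives, with 0 changes of sign. By total signal 1 of the 10 genes was called in Oct4+ against DP nEnd, and the count was 0 where a peak had to cover 50% of a window (*Kdm5b* was then unmarked in DP nEnd replicate 1 and Pdgfra+ nEnd replicate 3 and not tested), 2 with equal numbers of peaks (*Kdm1a* was then unmarked in 2 DP and 2 Pdgfra+ libraries and not tested in any measure), 0 in 1 fit over all 10 libraries, 3 with percentiles among the tested genes and 0 by exact permutation tests, and 0 to 3 with 1 library left out. In Oct4+ against Pdgfra+ nEnd it was 1, and under the same alternatives in turn 0, 3, 2, 5 and 0, 2 with the replicate block, and 0 to 4 with 1 library left out. Of all genes, 4.87% and 4.73% were called in these pairs, against 4.62% and 3.95% with 50% cover, 36.2% and 37.3% with equal numbers of peaks, 0.608% and 11.5% in 1 fit, 38.2% and 39.8% with percentiles among the tested genes, 3.07% and 3.15% with the replicate block, and 1.5% to 7.71% and 0% to 17.5% with 1 library left out. By highest coverage 1 gene, *Wdr5*, was called in Oct4+ against Pdgfra+ nEnd with percentiles among the tested genes, against 0, with 4.12% of all genes called against 0%. By width, 2 genes were called there, and the count was 1 with 50% cover, 1 with equal numbers of peaks, 0 with width percentiles, 1 with summed widths, 0 by exact tests and 0 to 2 with 1 library left out. In DP against Pdgfra+ nEnd it was 0, and 0 to 1 with 1 library left out (*Kdm1a*, without Pdgfra+ nEnd replicate 1, where 16.3% of all genes were called against 0.516%). Genes marked per library averaged 9.67 of 10 in DP nEnd and 9.67 in Pdgfra+ nEnd with 50% cover, and 9.33 and 9.33 with equal numbers of peaks. The replicate block kept the *Kdm5b* calls by total signal, at 12.1 and 12.7 points, and those of *Kdm5b* and *Kdm1a* by width, at 1.40 and 1.32. The libraries with few peaks limit which genes were marked and tested, and 57.9% of the genes had their lowest total-signal percentile in Oct4+ nEnd replicate 3. The cause of each change was not tested.

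The differences that changed sign were these. For total-signal percentile Oct4+ minus DP, with equal numbers of peaks, the difference was 2.34 for *Kmt2b* and 9.97 for *Setd1a*. For total-signal percentile Oct4+ minus DP, with percentiles among the tested genes, the difference was 2.52 for *Kmt2b* and 9.21 for *Setd1a*. Oct4+ minus DP by total-signal percentile, with 1 library left out, ranged over −1.902 to 0.210 for *Kmt2b* and −7.21 to 2.02 for *Setd1a*. For total-signal percentile Oct4+ minus Pdgfra+, with equal numbers of peaks, the difference was 2.61 for *Kmt2b* and 4.08 for *Setd1a*. For total-signal percentile Oct4+ minus Pdgfra+, with percentiles among the tested genes, the difference was 2.59 for *Kmt2b* and 2.58 for *Setd1a*. Oct4+ minus Pdgfra+ by total-signal percentile, with 1 library left out, ranged over −1.91 to 0.202 for *Kmt2b*. For total-signal percentile DP minus Pdgfra+, with equal numbers of peaks, the difference was 0.268 for *Kmt2b*. DP minus Pdgfra+ by total-signal percentile, with 1 library left out, ranged over −0.801 to 0.490 for *Kmt2b*, −1.21 to 0.116 for *Kmt2c*, −0.782 to 1.71 for *Kmt2d*, −1.46 to 3.92 for *Kdm5b* and −2.84 to 21.04 for *Kdm1a*. Oct4+ minus DP by highest-coverage percentile, with 1 library left out, ranged over −0.205 to 1.66 for *Kmt2b* and −1.58 to 2.26 for *Kdm5a*. For highest-coverage percentile Oct4+ minus Pdgfra+, with equal numbers of peaks, the difference was 5.36 for *Setd1a*. Oct4+ minus Pdgfra+ by highest-coverage percentile, with 1 library left out, ranged over −4.98 to 6.21 for *Kmt2a*, −8.26 to 1.901 for *Kmt2c* and −11.1 to 7.995 for *Setd1a*. For highest-coverage percentile DP minus Pdgfra+, with equal numbers of peaks, the difference was −1.76 for *Setd1b*. DP minus Pdgfra+ by highest-coverage percentile, with 1 library left out, ranged over −2.14 to 8.02 for *Kmt2c*, −2.58 to 16.6 for *Setd1a*, −10.02 to 20.2 for *Setd1b* and −9.59 to 16.9 for *Kdm1a*. For log2 width Oct4+ minus DP, with the replicate block, the difference was −0.013 for *Kmt2a* and −0.055 for *Kmt2b*. For log2 width Oct4+ minus DP, as a width percentile, in points, the difference was −1.72 for *Kmt2b*. For log2 width Oct4+ minus DP, with summed widths, the difference was 0.38 for *Setd1b*. Oct4+ minus DP by log2 width, with 1 library left out, ranged over −0.052 to 0.11 for *Kmt2a*, −0.089 to 0.19 for *Kmt2b*, −0.31 to 0.038 for *Kmt2d* and −0.020 to 0.30 for *Wdr5*. For log2 width Oct4+ minus Pdgfra+, as a width percentile, in points, the difference was −8.15 for *Kmt2a*, −17.3 for *Kmt2c*, −7.03 for *Setd1a* and −23.2 for *Kdm5a*. For log2 width Oct4+ minus Pdgfra+, with the replicate block, the difference was −0.023 for *Kdm5a*. Oct4+ minus Pdgfra+ by log2 width, with 1 library left out, ranged over −0.0078 to 0.14 for *Kmt2c*, −0.22 to 0.062 for *Kmt2d*, −0.11 to 1.06 for *Setd1b* and −0.16 to 0.20 for *Kdm5a*. For log2 width DP minus Pdgfra+, as a width percentile, in points, the difference was −10.4 for *Kmt2a*, −10.9 for *Kmt2c*, −8.395 for *Kmt2d*, −9.64 for *Kdm5a* and −0.468 for *Kdm5b*. DP minus Pdgfra+ by log2 width, with 1 library left out, ranged over −0.085 to 0.28 for *Kmt2d* and −0.23 to 0.19 for *Setd1a*.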
